A study of Mus musculus with 12 samples.

Results

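Collagens and matrix proteins of the spleen were described by 10 genes: Col1a1, Col1a2, Col3a1, Col4a1, Col4a2, Col6a1, Sparc, Dcn, Bgn and Ecm1. They were chosen by name as parts of the stromal scaffold, and each was read from the array probe that carries its symbol, or, where a gene has several, from the brightest on average. All 10 genes were measured, of 19057 genes on the array, and 8 of the 10 had a mean of at least 7.5 on the deposited log2 scale.

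Male C57Bl/6J mice, bought at 6 weeks of age and kept for 3 weeks on a standard chow, were then fed for 8 weeks on a low fat control diet or on 1 of 2 high fat diets. The control diet held 5% fat by weight, as 2.5% corn oil and 2.5% coconut oil. The high fat diet based on corn oil (HFD-CO) held 15% fat, with 5% corn oil and 10% coconut oil, and 1% cholesterol. In the diet enriched with eicosapentaenoic acid (EPA) and docosahexaenoic acid (DHA) (HFD-ED), which also held 15% fat with 10% coconut oil and 1% cholesterol, corn oil was 3% and EPA and DHA triglycerides were 2%. Spleen RNA of 4 mice per diet was hybridized to bead arrays (Illumina MouseWG-6 v2.0), each mouse on its own array, and the mice had been picked from larger groups by body weight and plasma lipids. Mice were caged in groups and the labels do not name the cage of a mouse, so that cage and diet cannot be told apart.

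The spleen is held together by a mesh of reticular fibers, a capsule and trabeculae, and basement membranes around its vessels and sinuses. Fibrillar collagens are built from the chains of type I (Col1a1, Col1a2) and type III (Col3a1), and reticular fibers are known for type III collagen made by reticular fibroblasts. Type IV chains (Col4a1, Col4a2) form the sheet of basement membranes, type VI (Col6a1) makes beaded filaments between fibers and cells, and decorin and biglycan (Dcn, Bgn) are small leucine-rich proteoglycans that bind collagen fibrils. Sparc encodes a collagen-binding matricellular glycoprotein, and Ecm1 a secreted glycoprotein that binds other matrix proteins.

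A pair of promoter sequences is shown because Col1a2 and Col3a1, a fibrillar pair, were the members whose HFD-CO mice lay apart from the control mice. Each is the stretch of 250 bases before the start of the gene, 5′ to 3′ on the gene's strand, from RefSeq (build GRCm38.p6), whose promoter table held 8 of the 10 genes. Capitals mark the CCAAT box (letters CCAAT), the TATA box (letters TATAAA) and the GC box (letters GGGCGG), searched on both strands, and no matches overlapped in these windows. Col1a2 lies on the plus strand at chr6:4505368-4505617 and Col3a1 on the plus strand at chr1:45311288-45311537.
Col1a2: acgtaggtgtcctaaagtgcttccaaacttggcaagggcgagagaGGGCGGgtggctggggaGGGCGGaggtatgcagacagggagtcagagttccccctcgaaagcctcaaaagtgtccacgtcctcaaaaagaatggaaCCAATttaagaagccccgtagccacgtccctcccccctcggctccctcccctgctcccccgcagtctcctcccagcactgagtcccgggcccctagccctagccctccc
Col3a1: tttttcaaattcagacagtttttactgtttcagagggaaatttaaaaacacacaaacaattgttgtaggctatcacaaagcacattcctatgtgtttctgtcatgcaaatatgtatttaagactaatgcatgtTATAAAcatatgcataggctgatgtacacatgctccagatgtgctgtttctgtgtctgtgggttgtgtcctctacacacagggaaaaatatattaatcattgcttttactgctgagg
The Col1a2 window held the CCAAT box 1 time, 109 bases before the start, and the GC box 2 times, with a GC content of 62.0%. The Col3a1 window held the TATA box 1 time, 117 bases before the start, with a GC content of 35.2%. Of the 32851 promoter windows of this length in the table, 33.8% held the CCAAT box, 12.4% the TATA box and 32.7% the GC box. Col4a1 and Col4a2 start 21 bases apart on opposite strands.

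Over all probes, pairs of arrays within a diet correlated at 0.971 to 0.995. Markers of other cells differed between the mice, and 2 mice stood apart. In HFD-ED replicate 3 the mean of the 9 erythroid markers was 11.04 against 8.64 to 10.37 in the other mice, and that of the 8 neutrophil granule markers was 11.97 against 8.85 to 10.70. In HFD-CO replicate 4 the mean of the 8 pancreatic acinar markers was 12.54, in HFD-CO replicate 1 it was 8.81, and it was 7.07 to 7.68 in the others. Of 8 spleen identity markers, 5 had a mean of at least 7.5, among them Cd3e of T cells (10.16) and Spic of red pulp macrophages (10.98), while Cd4 (7.25), Cd8a (7.08) and Cd5l (7.05) were dim. A protocol label names skeletal muscle as the source of RNA, but of 7 muscle markers only Tnni2 (7.97) had a mean of at least 7.5. Mylpf was at 7.42, and Acta1 (7.10), Ckm (7.04) and Myh4 (7.05), genes of the muscle contractile and energy machinery, were near the lower quartile of all probes, 7.08. Apart from this reading of probes as bright or dim, levels are compared here between mice and not between genes, since each probe has its own brightness. Where spreads of genes are set side by side below, those of dim probes are compressed. In a whole organ, fewer cells of a type and less RNA per cell cannot be told apart.

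**Figure D1:**
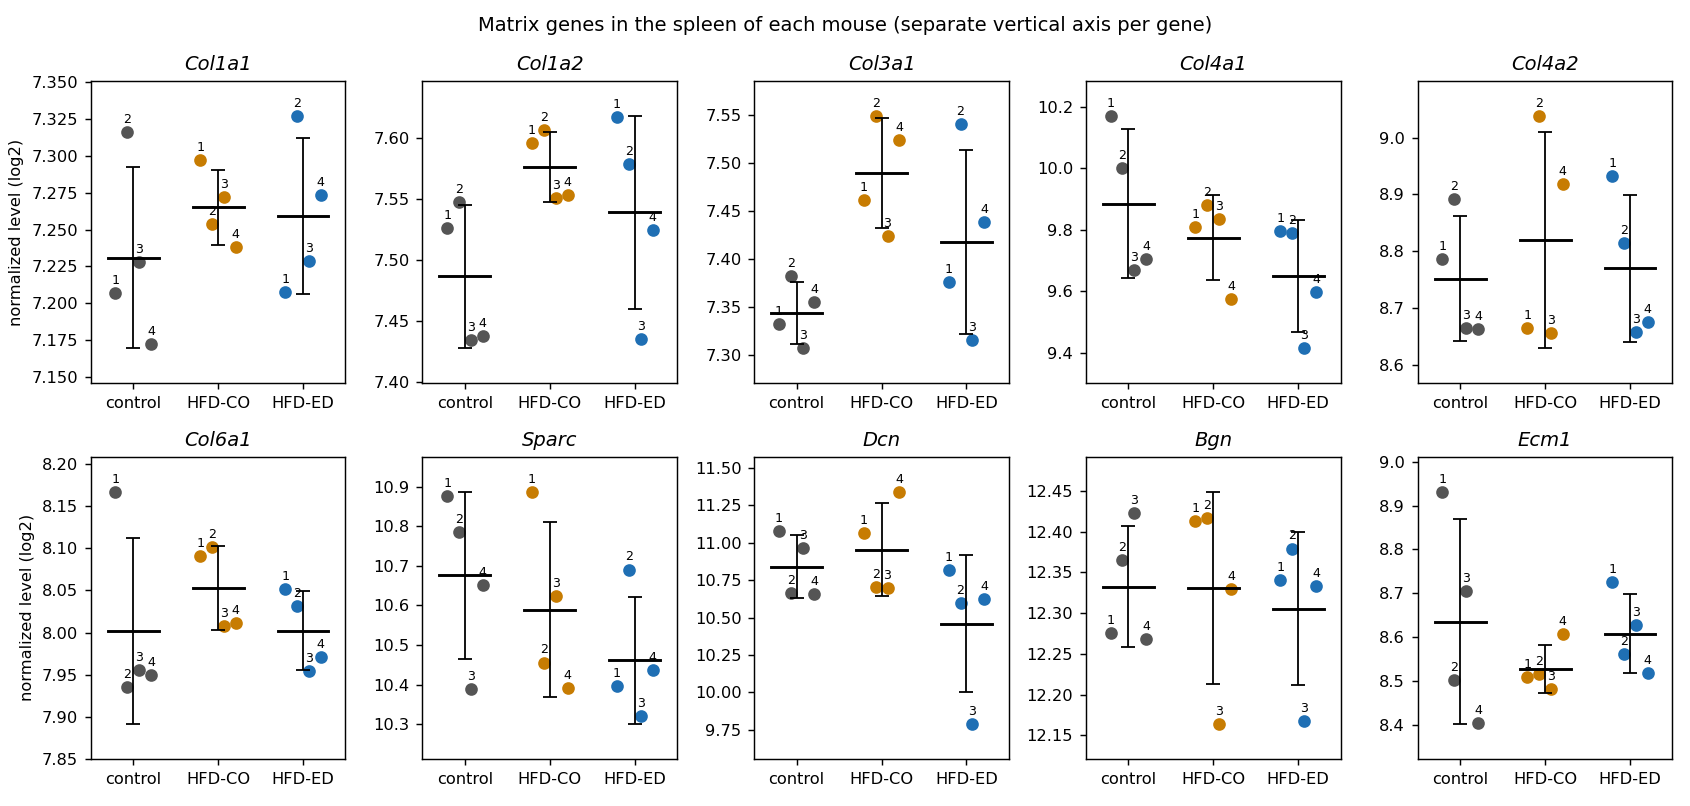
Deposited log2 level (y axis) of each of the 10 matrix genes in each mouse, by diet (x axis). Points are mice with their replicate number, lines are means and error bars are SD (n = 4). Col3a1 lay at 7.31 to 7.38 in control and 7.42 to 7.55 in HFD-CO mice, and 1 HFD-ED mouse had a Dcn level of 9.79, below all others.

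No matrix gene passed the test in any comparison of diets. In HFD-ED versus control 0 of 10 genes were called at an adjusted p under 0.05 (limma, Benjamini-Hochberg over all probes), as were 0% of all probes, and 0 of 10 had an unadjusted p under 0.05, which 10.2% of all probes had. In HFD-CO versus control 0 of 10 were called, against 0% of all probes, and 2 of 10 had an unadjusted p under 0.05, against 4.58% of all probes. In HFD-ED versus HFD-CO 0 of 10 were called, against 0.00221% of all probes, and 1 of 10 had an unadjusted p under 0.05, against 9.30% of all probes. The signs of the differences were 5 higher and 5 lower in HFD-ED versus control (median difference -0.014 log2 units) and 6 higher and 4 lower in HFD-CO versus control (median 0.043). In HFD-ED versus HFD-CO 1 was higher and 9 were lower (median -0.050). In HFD-ED versus control 0 of 10 genes lacked overlap between the mice of both diets, against 5.49% of all genes (1.99% higher and 3.49% lower). In HFD-CO versus control 2 of 10 did, both higher, against 3.32% (1.46% higher and 1.85% lower), and in HFD-ED versus HFD-CO 0 of 10, against 4.54% (1.93% higher and 2.61% lower). Over all genes the median differences were between -0.0036 and -0.0018, and 45.9% to 47.8% of genes were higher. Comparisons share diets: HFD-CO stands in 2 of them and so do control and HFD-ED.

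Among the fibrillar collagens, Col3a1 was 0.15 log2 units higher in HFD-CO than in control mice, and Col1a2 was 0.090 higher, without overlap between the mice of both diets. Neither difference passed the adjusted test. Col3a1, the type III chain, was 7.33, 7.38, 7.31 and 7.35 in control replicates 1 to 4, and 7.46, 7.55, 7.42 and 7.52 in the HFD-CO mice. In the HFD-ED mice it was 7.38, 7.54, 7.32 and 7.44. All HFD-CO mice thus lay above all control mice, by at least 0.041, while the HFD-ED mice spread over both ranges. The HFD-CO minus control difference of Col3a1 was 0.15 (SE 0.045, 95% confidence interval 0.047 to 0.24, adjusted p = 0.99996 in limma, exact two-sided permutation p = 0.0286). With 4 mice against 4, 0.0286 is the smallest p that permutation allows.

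Col1a2, the second chain of type I collagen, was 7.53, 7.55, 7.43 and 7.44 in control and 7.60, 7.61, 7.55 and 7.55 in HFD-CO mice. Its HFD-ED mice were at 7.62, 7.58, 7.44 and 7.52. The HFD-CO and control mice were parted by only 0.0029. The HFD-CO minus control difference of Col1a2 was 0.090 (SE 0.039, interval 0.0027 to 0.18, adjusted p = 0.99996 in limma, exact permutation p = 0.0286). Col1a1, the main chain of type I collagen, was 7.17 to 7.32 in control, 7.24 to 7.30 in HFD-CO and 7.21 to 7.33 in HFD-ED mice, so that all diets overlapped. Its HFD-CO minus control difference was 0.034 (interval -0.039 to 0.11, adjusted p = 0.99996 in limma).

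Several measurements bear on the values of Col3a1 and Col1a2. The fibrillar probes lay between 7.17 and 7.62 in all mice, on the dim part of the scale where differences are compressed and where 75.2% of probes have their mean (under 7.5). A second Col3a1 probe (mean 7.11) had an HFD-CO minus control difference of -0.0083 and correlated at -0.055 with the first over the 12 mice. Of 7 adipocyte markers, 4 were higher in HFD-CO than in control mice, 3 were lower, and 0 were called. All 4 higher ones had an unadjusted p under 0.05, which 4.58% of all probes had. The mean over the 7 adipocyte markers was 7.13 to 7.38 in control and 7.33 to 7.52 in HFD-CO mice. Adipoq, which defines fat cells, was 8.33, 7.20, 7.63 and 7.64 in control and 8.10, 8.31, 8.28 and 8.61 in HFD-CO mice, while the fat cell genes Plin1 (mean 7.10) and Fabp4 (7.07) were at the low end of the scale. The part of fat cells in the fibrillar values was not tested. With both HFD-CO mice that carried pancreatic markers left out, the differences were 0.14 for Col3a1 and 0.092 for Col1a2.

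In HFD-ED versus control the fibrillar genes differed by 0.028 (Col1a1), 0.053 (Col1a2) and 0.074 (Col3a1), with adjusted p of 0.846, 0.717 and 0.627 (limma). In HFD-ED versus HFD-CO they differed by -0.0058, -0.037 and -0.072, and the intervals reached from -0.17 to 0.067 over all 3 genes.

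The type IV chains of basement membranes did not pass the test in any comparison. Col4a1 was 10.17, 10.0002, 9.67 and 9.70 in control, 9.81, 9.88, 9.83 and 9.57 in HFD-CO, and 9.80, 9.79, 9.41 and 9.60 in HFD-ED mice. The highest control mice stood above all others, and the lowest value was in HFD-ED replicate 3. Its means were 9.89 ± 0.24 in control, 9.77 ± 0.14 in HFD-CO and 9.65 ± 0.18 in HFD-ED mice (SD, n = 4). The HFD-ED minus control difference of Col4a1 was -0.24 (SE 0.12, interval -0.51 to 0.038, adjusted p = 0.559 in limma), with 2 of 4 HFD-ED mice below all control mice. With single mice left out this difference ranged from -0.31 (without control replicate 3) to -0.14 (without control replicate 1).

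Col4a2, whose product joins that of Col4a1 in 1 trimer, was 8.66 to 8.89 in control, 8.66 to 9.04 in HFD-CO and 8.66 to 8.93 in HFD-ED mice. The diets overlapped, with 2 of 4 HFD-CO mice above all control mice and 1 below them. The differences were 0.018 (HFD-ED versus control, interval -0.19 to 0.23) and 0.068 (HFD-CO versus control, interval -0.14 to 0.28). The HFD-ED minus HFD-CO difference was -0.049 (interval -0.26 to 0.16). Both chains of the trimer correlated weakly over the 12 mice (Pearson's r 0.344).

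Col6a1 was 8.17, 7.94, 7.96 and 7.95 in control, 8.09, 8.10, 8.01 and 8.01 in HFD-CO, and 8.05, 8.03, 7.95 and 7.97 in HFD-ED mice. One control mouse, replicate 1, was above all others. The differences were 0.00017 (HFD-ED versus control, interval -0.11 to 0.11) and 0.051 (HFD-CO versus control, interval -0.058 to 0.16). With HFD-ED set against HFD-CO it was -0.051 (interval -0.16 to 0.058, adjusted p = 0.819 in limma). A second Col6a1 probe (mean 7.77) differed by -0.11 in that comparison (interval -0.20 to -0.018, unadjusted p = 0.0242, adjusted p = 0.487 in limma).

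Sparc was 10.88, 10.79, 10.39 and 10.65 in control, 10.88, 10.46, 10.62 and 10.39 in HFD-CO, and 10.40, 10.69, 10.32 and 10.44 in HFD-ED mice. Values near 10.4 and values above 10.6 occurred in all diets. Its mean was lowest in HFD-ED mice, with an HFD-ED minus control difference of -0.21 (SE 0.13, interval -0.50 to 0.071, adjusted p = 0.627 in limma). Of its other probes, 1 with a mean of 8.59 differed by -0.0031 in that comparison and 1 with a mean of 8.32 by -0.23.

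On these arrays the study itself listed Ecm1 among genes tied to NF-κB that were higher under HFD-ED than under control or HFD-CO. Its threshold was an adjusted p under 0.001 in at least 1 comparison. At that threshold the study reported differentially expressed genes for both high fat diets against control. In the limma fit used here, 0 of all probes passed that threshold in any comparison of diets. The lack of a call at that threshold is therefore not particular to Ecm1. The cause of this difference from the study was not tested. Ecm1 was 8.93, 8.50, 8.70 and 8.40 in control, 8.51, 8.52, 8.48 and 8.61 in HFD-CO, and 8.72, 8.56, 8.63 and 8.52 in HFD-ED mice. The control mice spanned the values of both other diets. The HFD-ED minus HFD-CO difference of Ecm1 was 0.080 (SE 0.096, interval -0.13 to 0.29, adjusted p = 0.867 in limma), with 2 of 4 HFD-ED mice above all HFD-CO mice. The HFD-ED minus control difference was -0.028 (interval -0.24 to 0.18, adjusted p = 0.961 in limma) and that of HFD-CO minus control -0.11 (interval -0.32 to 0.11). Without control replicate 1, which held the highest Ecm1 level, these were 0.071 and -0.0090.

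**Figure D2:**
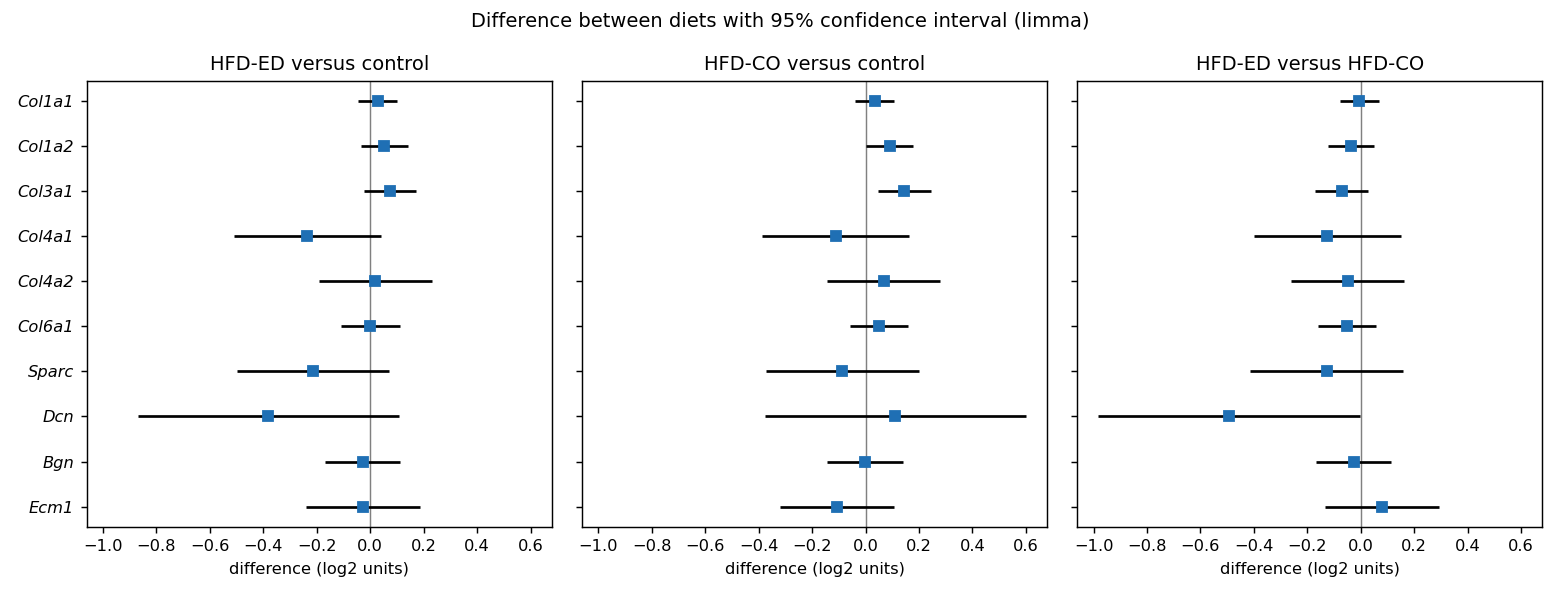
Difference between diets in log2 units (x axis) for each of the 10 matrix genes (y axis), in 3 panels for the 3 comparisons. Squares are limma estimates and lines are 95% confidence intervals, unadjusted. Only those of Col1a2 and Col3a1 in HFD-CO versus control and of Dcn in HFD-ED versus HFD-CO leave out 0, and none passed the adjusted test.

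Decorin varied most among the 10 genes between mice of the same diet, with a within-diet SD of 0.34 log2 units against 0.049 to 0.20 for the others. Dcn was 11.07, 10.66, 10.96 and 10.66 in control, 11.06, 10.71, 10.70 and 11.34 in HFD-CO, and 10.82, 10.60, 9.79 and 10.62 in HFD-ED mice. The lowest value was in HFD-ED replicate 3 and the highest in HFD-CO replicate 4, the same 2 mice that stood apart in the markers of other cells. In both comparisons 3 of 4 HFD-ED mice were below all mice of the other diet. Dcn was 1.41-fold lower in HFD-ED than in HFD-CO mice (difference -0.49, SE 0.22, interval -0.98 to -0.0044, adjusted p = 0.534 in limma, exact permutation p = 0.143). The HFD-ED minus control difference of Dcn was -0.38 (interval -0.87 to 0.11, adjusted p = 0.608 in limma), and the HFD-CO minus control difference was 0.11 (interval -0.38 to 0.60).

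These values rest in part on single mice. Without HFD-ED replicate 3 the Dcn difference was -0.27 against HFD-CO and -0.16 against control. Without HFD-ED replicate 1 it was larger, at -0.61 and -0.50, and in both comparisons it kept its sign with any single mouse left out. With HFD-ED replicate 3 and HFD-CO replicate 4 both left out it was -0.14 between the high fat diets. Without both HFD-CO mice that carried pancreatic markers the HFD-CO minus control difference was -0.14, of the opposite sign. A second Dcn probe (mean 8.64) followed the first at a correlation of 0.973 over the mice and differed by -0.31 between the high fat diets. In HFD-ED replicate 3 the mean of 13 reticular fibroblast markers was also lowest, at 8.75 against 9.02 to 9.24 in the other mice, and Ccl21a, a chemokine of T zone reticular cells, was 10.48 against 11.97 to 12.43. The mean of 12 endothelial markers was 8.07 in that mouse and 8.13 to 8.33 in the others. Between diets, 3 reticular fibroblast markers were higher and 10 lower in HFD-ED versus control (median -0.078). In HFD-ED versus HFD-CO 2 were higher and 11 lower (median -0.11). For endothelial markers these counts were 3 and 9, then 5 and 7, and for 10 smooth muscle and pericyte markers 2 and 8, then 4 and 6. In these lists 0 genes were called. In HFD-CO replicate 4 the mean of the adipocyte markers was the highest of the 12 mice, at 7.52. The part of these cells in the Dcn values was not tested.

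Biglycan, the other small leucine-rich proteoglycan, was 12.28, 12.36, 12.42 and 12.27 in control, 12.41, 12.42, 12.16 and 12.33 in HFD-CO, and 12.34, 12.38, 12.17 and 12.33 in HFD-ED mice. All diets overlapped and Bgn kept within 0.26 log2 units over the 12 mice, where Dcn spanned 1.55. The intervals of its differences between diets reached from -0.17 to 0.14 over the 3 comparisons.

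**Figure D3:**
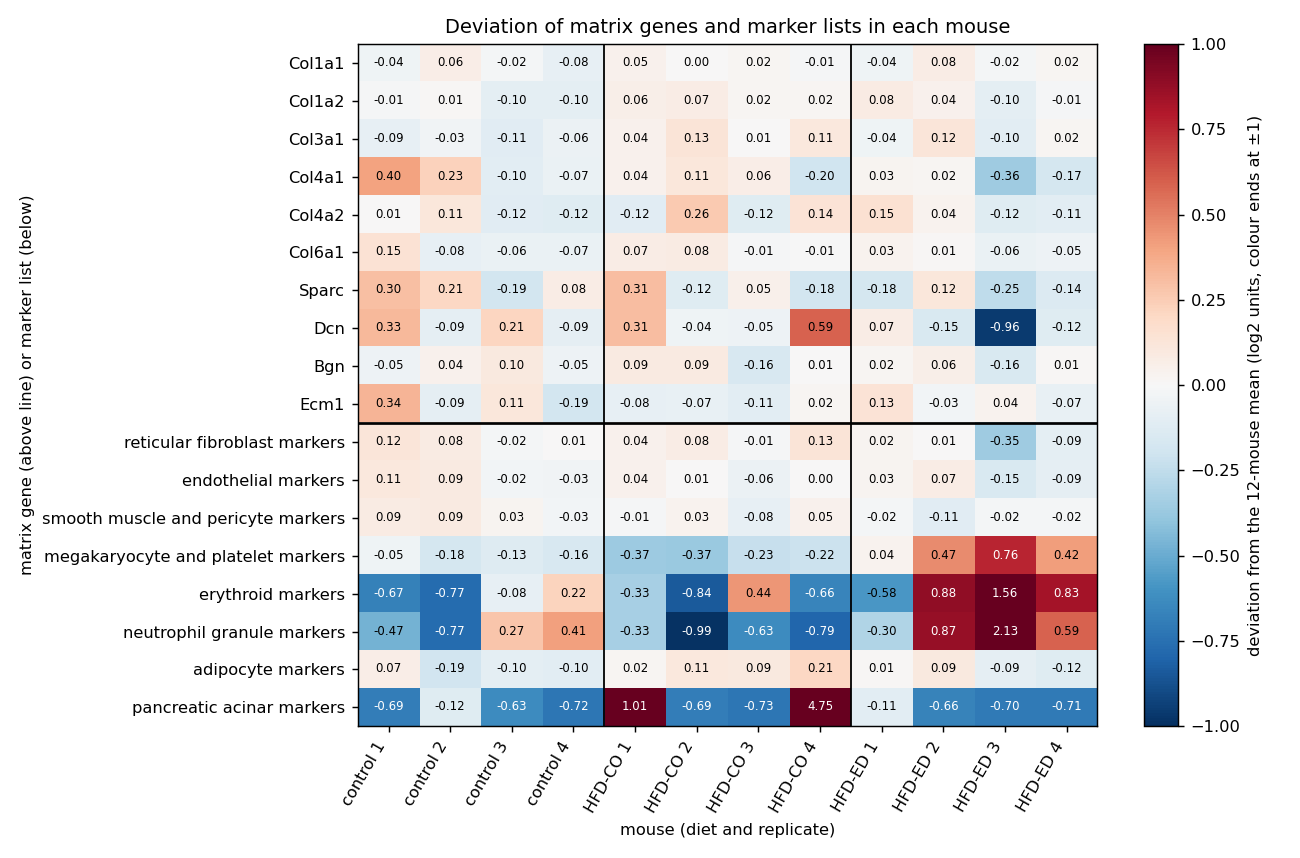
Deviation of each mouse (x axis) from the mean of the 12 mice in log2 units (colour, ending at ±1), for the 10 matrix genes above the line and the means of marker lists below it. HFD-ED replicate 3 combines a Dcn deviation of -0.96 with high erythroid, neutrophil and megakaryocyte markers, and HFD-CO replicate 4 combines one of 0.59 with high pancreatic markers.

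Mice did not order alike in all genes. HFD-ED replicate 3 was lowest in 3 of the 10 genes and above the mean of the 12 mice in 1, and control replicate 1 was highest in 3 and above that mean in 6. Control replicate 4 was above the mean in 1 gene, and HFD-CO replicate 1 and HFD-ED replicate 2 in 8 each. Of 45 pairs of genes over the 12 mice, 37 had a positive Pearson's r, with a median of 0.311, and 0 passed the Benjamini-Hochberg adjustment over the pairs in either Pearson's or Spearman's test, while 5 had an unadjusted p under 0.05 in Pearson's. The highest was that of Col4a1 with Sparc (r 0.747, permutation p = 0.00437, adjusted 0.197, and rho 0.741, permutation p = 0.00822, adjusted 0.238). It was 0.571 without the 2 mice farthest from the median of Col4a1 and 0.674 with values centred within diets. This pair rests on 1 Sparc probe, which correlated at 0.322 and 0.589 with the Sparc probes of mean 8.59 and 8.32. Col1a2 with Col3a1 followed (r 0.690, permutation p = 0.0143, adjusted 0.322, and rho 0.720, permutation p = 0.0106, adjusted 0.238), at 0.496 without the 2 farthest mice and 0.484 within diets. Col1a1 with Col1a2, the chains of 1 trimer, had r 0.468 (permutation p = 0.126, adjusted 0.518) and rho 0.329 (permutation p = 0.298, adjusted 0.567), and r was 0.233 without the 2 farthest mice. Col4a1 with Col4a2 had r 0.344 (permutation p = 0.276, adjusted 0.562) and rho 0.259 (permutation p = 0.418, adjusted 0.604), and 0.336 without the 2 farthest mice. Dcn with Bgn had r 0.496 (permutation p = 0.105, adjusted 0.518) and rho 0.238 (permutation p = 0.459, adjusted 0.625). This fell to an r of 0.186 without HFD-ED replicate 3 and HFD-CO replicate 4. Col1a2 was higher in replicates 1 and 2 than in replicates 3 and 4 in every diet, as was the mean of the endothelial markers. Col3a1, Col4a1 and Dcn did not split so in every diet. Centring within diets does not take out such a split, and its cause was not tested. With 4 mice a diet is too small for a correlation of its own.

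**Figure D4:**
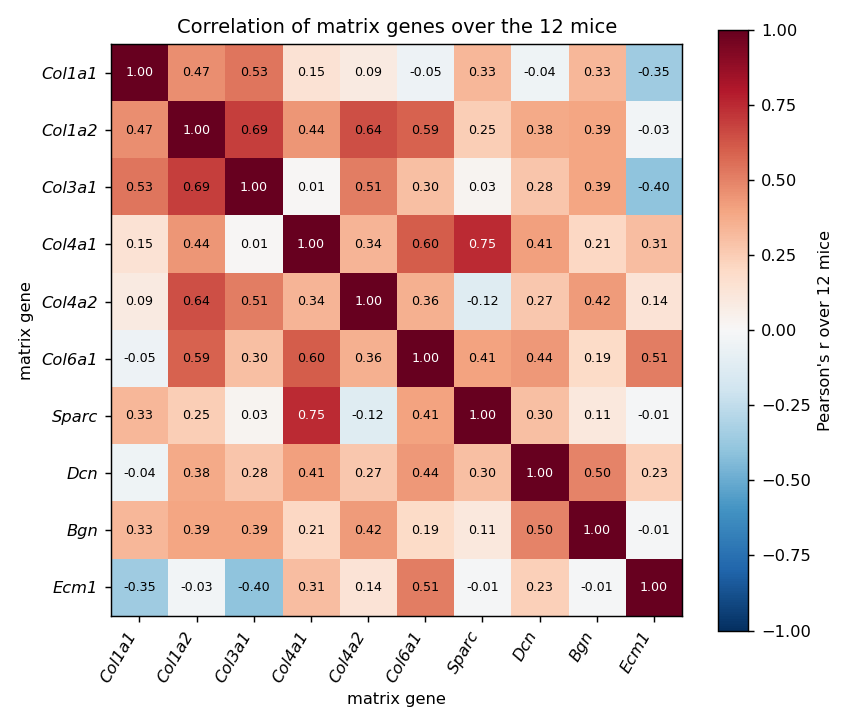
Pearson's r over the 12 mice between each pair of the 10 matrix genes (both axes), as colour and as the printed value. The highest r off the diagonal is that of Col4a1 with Sparc (0.75) and none passed the adjustment over the 45 pairs.

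Genes outside the matrix that followed these patterns best were looked up among 4996 genes with a mean of at least 8, as a description without a test, since the best of many genes always correlate well over 12 mice. The mean of the scaled fibrillar genes was followed best by Ythdf3 (r 0.908), a reader of methylated RNA, and H2-Eb2 (0.906), an MHC class II chain, before Nxt2 (0.888), Prep (0.878), the lysosomal membrane gene Lamp2 (0.877) and Cep170 (0.870). The mean of the scaled type IV chains was followed best by Stab2 (r 0.923), a scavenger receptor of sinusoidal endothelium, and Zfp263 (0.920), before S100a4 (0.875), Dennd10 (0.872), Cxcl13 (0.864), a chemokine for B cells, and Ywhaz (0.860). Stab2 and Cxcl13 are also members of the endothelial and reticular fibroblast marker lists.

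The rest of the matrix programme was read from further gene lists, and 0 genes of any list were called in any comparison at an adjusted p under 0.05. Of 23 other collagens, 10 were higher and 13 lower in HFD-ED versus control, 12 and 11 in HFD-CO versus control, and 12 and 11 in HFD-ED versus HFD-CO. Col5a1, a chain that starts type I fibrils, was 8.19, 8.04, 8.49 and 8.43 in control, 8.22, 8.12, 8.49 and 8.24 in HFD-CO, and 8.19, 8.90, 9.42 and 8.89 in HFD-ED mice. It was highest in the same 3 HFD-ED mice that had the highest erythroid markers, and its HFD-ED minus HFD-CO difference was 0.58 (SE 0.21, adjusted p = 0.475 in limma). The part of erythroid cells in the Col5a1 values was not tested. Col8a2, of vessel and corneal matrix, had an HFD-ED minus control difference of -0.14 (adjusted p = 0.464 in limma), without overlap. It was 1 of the 23, against 3.49% of all genes in that direction.

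Of 16 other basement membrane genes, 5 were higher and 11 lower in HFD-ED versus control, 6 and 10 in HFD-CO versus control, and 7 and 9 in HFD-ED versus HFD-CO. The laminin chain Lama2 had an HFD-ED minus control difference of 0.084 (adjusted p = 0.267 in limma), without overlap. That was 1 of the 16 genes, against 1.99% of all genes in that direction. Agrn, Hspg2 and Col18a1, which encode heparan sulfate or endostatin-bearing core proteins, had means of 9.39, 8.999 and 8.76 over the 12 mice.

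Of 23 genes for collagen synthesis and cross-linking, 7 were higher and 16 lower in each of the 3 comparisons, with medians of -0.055 (HFD-ED versus control), -0.029 (HFD-CO versus control) and -0.016 (HFD-ED versus HFD-CO). Crtap, a partner of prolyl 3-hydroxylase, was 8.14, 8.22, 8.06 and 8.19 in control and 7.94, 8.04, 7.98 and 8.01 in HFD-CO mice, a difference of -0.16 (SE 0.033, adjusted p = 0.99996 in limma) without overlap. In HFD-CO versus control it was 1 of the 23 without overlap, against 1.85% of all genes in that direction. P3h3, of the prolyl 3-hydroxylase family, and the prolyl 4-hydroxylase subunit P4ha2 had HFD-ED minus control differences of -0.10 (adjusted p = 0.252 in limma) and -0.14 (adjusted p = 0.296), also without overlap. No overlap in HFD-ED versus control was seen in 4 of the 23, all lower, against 3.49% of all genes in that direction.

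Of 20 matrix remodelling enzymes and inhibitors, 5 were higher and 15 lower in HFD-ED versus control (median -0.056), 8 and 12 in HFD-CO versus control, and 6 and 14 in HFD-ED versus HFD-CO (median -0.057). The macrophage elastase Mmp12 had an HFD-ED minus control difference of -0.16 (adjusted p = 0.297 in limma). The inhibitors Timp1 (-0.18, adjusted p = 0.297) and Reck (-0.16, adjusted p = 0.299) were also lower by values. No overlap was seen in 4 of the 20, all lower, in HFD-ED versus control, against 3.49% of all genes in that direction. In HFD-ED versus HFD-CO it was also seen in 4, all lower, where the share of all genes was 2.61%.

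Of 31 proteoglycan, elastic fiber and matricellular genes, 13 were higher and 18 lower in HFD-ED versus control, 15 and 16 in HFD-CO versus control, and 10 and 21 in HFD-ED versus HFD-CO. Emilin2 was 7.87, 8.89, 9.92 and 8.93 in HFD-ED and 7.60 to 8.45 in HFD-CO mice (difference 0.93, adjusted p = 0.489 in limma), again highest in HFD-ED replicate 3. The part of other cells in the Emilin2 values was not tested. Of 10 collagen receptors, 2 were higher and 8 lower, 3 and 7, and 1 and 9 in the same order of comparisons, with the integrin chain Itga11 at -0.18 in HFD-ED versus control (adjusted p = 0.398 in limma).

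Of 16 genes of the TGF-beta pathway, which is known to drive collagen transcription, 2 were higher and 14 lower in HFD-ED versus control (median -0.14), 4 and 12 in HFD-CO versus control (median -0.043), and 7 and 9 in HFD-ED versus HFD-CO (median -0.022). The TGF-beta-induced matrix gene Tgfbi was 11.49, 11.51, 11.43 and 11.12 in control and 11.21, 10.77, 11.15 and 10.93 in HFD-ED mice, a difference of -0.37 (SE 0.12, adjusted p = 0.364 in limma). The receptor Tgfbr2 was -0.27 and the ligand Tgfb1 -0.23 in HFD-CO versus control, both with an adjusted p of 0.99996 (limma). In HFD-ED versus control, markers of blood-forming cells had higher list means in the HFD-ED mice. Of 8 megakaryocyte and platelet markers 8 were higher, all at an unadjusted p under 0.05 and 4 without overlap, with list means of 8.92 to 9.65 against 8.71 to 8.84 in control mice. Of 8 neutrophil granule markers 8 were higher, 2 at an unadjusted p under 0.05, with list means of 9.54 to 11.97 against 9.07 to 10.25. Of 9 erythroid markers 9 were higher, 4 at an unadjusted p under 0.05, with list means of 8.91 to 11.04 against 8.71 to 9.71. Of all probes, 10.2% had an unadjusted p under 0.05 in that comparison, and 1.99% of all genes were higher without overlap. In these lists of blood-forming cell markers 0 genes were called, and their part in the TGF-beta values was not tested.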

How the data were processed

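Arrays of 12 mice, 4 per diet, were used. From the bead intensities the authors made log2 values with the lumi package (version 2.18.0 per the submitters' processing notes), by variance stabilization and quantile normalization, and deposited them. This scale is near log2 for bright probes and compressed for dim ones. Arrays carry no read depth, and the number of arrays limits the precision. Detection p-values and chip positions were not used here. Replicates are separate mice, and no 2 arrays held identical values.

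Of 45281 probes, 34885 carry 1 gene symbol in the platform annotation, 18 several and 10378 none, and 1 probe per gene, that with the highest mean, was taken. The fit over all probes used limma 3.58.1 under R 4.3.3 (functions lmFit and eBayes, 1 coefficient per diet, two-sided, Benjamini-Hochberg over all probes of a comparison, called at 0.05), and 95% intervals come from that fit. Single genes were also tested by exact permutation over mice, and pairs of genes by permutation (100000 resamples, numpy 2.4.6, ranks from scipy 1.17.1). The limma test was checked on simulated data. Of 277 listed symbols 252 were measured, 9 under an older name. The genes and lists were chosen with earlier results of these data known. Named were all 10 genes, and of each list those with the smallest p in any comparison or the highest mean, with values where they add to the text. Adipoq, Ccl21a, Plin1, Fabp4, Cd8a, Cd5l, Acta1, Ckm and Myh4 were named as defining markers after their values were seen. Equal replicate numbers were not taken as pairs: over all probes, deviations of equally numbered mice correlated above 0.1 in 4 of 12 cases. Such a correlation does not show whether single genes go with the number. Alternatives were a replicate block, array weights, other variance models, tests on 1 probe per gene or without dim probes, other normalizations, a fit of 2 diets, other probes and leaving out each mouse, and 2 sets of mice left out were added after seeing the data.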

Additional observations from a re-analysis of the deposited data

Results flagged for a closer look

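Of the 30 sets of 4 values (10 genes in 3 diets), 1 held a mouse far from the other mice of its diet: the Col6a1 level of control replicate 1 was 8.17, with the nearest control mouse at 7.96, and the gap made up 0.912 of the range of that diet, past the limit of Dixon's test. About 1 in 20 such sets is marked by chance. Without this mouse the Col6a1 difference was 0.055 in HFD-ED versus control and 0.11 in HFD-CO versus control.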

How the results depend on the processing

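In every alternative run, 0 of the 10 matrix genes were called in each comparison. The lowest adjusted p of a member over all alternatives was 0.295 in HFD-ED versus control, 0.800 in HFD-CO versus control and 0.270 in HFD-ED versus HFD-CO (limma). Over all probes HFD-CO versus control had 0 calls in every alternative. HFD-ED versus control had 0 calls, with 8 under a variance trend with robust fitting, 3 with 1 probe per gene, and 0 to 87 with single mice left out (87 without HFD-ED replicate 1). HFD-ED versus HFD-CO had 1 call, with 7 under the variance trend, 0 to 46 with single mice left out (46 without HFD-ED replicate 1), and 0 with the dim probes filtered out, cyclic loess, a fit of both diets alone, without the mice with pancreatic markers, and without HFD-ED replicate 3 and HFD-CO replicate 4. With the replicate number as a block it had 0, and that block, which pairs mice by number only, changed no call of a matrix gene. The block lowered the SE of Col3a1 in HFD-CO versus control from 0.045 to 0.024 (adjusted p = 0.994 in limma). That of Col1a2 fell from 0.039 to 0.023 (adjusted p = 0.994 in limma). In HFD-ED versus control the SE of Col4a1 fell from 0.12 to 0.081 (adjusted p = 0.342 in limma), and that of Dcn from 0.22 to 0.20. The cause of this was not tested.

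Col1a1 and Col3a1 were below the filter on dim probes, and genes with 1 probe had no second one. The sign of a difference turned in the following cases. The second probe gave Col3a1 -0.032, Col6a1 -0.075 and Ecm1 0.00039 in HFD-ED versus control, and Col3a1 -0.0083 and Sparc 0.079 in HFD-CO versus control. Cyclic loess gave Bgn 0.022, 0.019 and 0.0029 in HFD-ED versus control, HFD-CO versus control and HFD-ED versus HFD-CO, and array weights gave Col6a1 -0.0011 (HFD-ED versus control) and Bgn 0.00022 (HFD-CO versus control). Without the pancreatic-marker mice, Dcn was -0.14 in HFD-CO versus control and Bgn 0.015 in HFD-ED versus HFD-CO. Without HFD-ED replicate 3 and HFD-CO replicate 4, Bgn was 0.018 in HFD-ED versus control and 0.020 in HFD-ED versus HFD-CO, Dcn -0.018 in HFD-CO versus control and Col4a2 0.021 in HFD-ED versus HFD-CO. With single mice left out, HFD-ED versus control ranged from -0.036 to 0.065 for Col4a2, -0.022 to 0.055 for Col6a1, -0.052 to 0.018 for Bgn and -0.10 to 0.071 for Ecm1. HFD-CO versus control ranged from -0.0054 to 0.12 for Col4a2, -0.018 to 0.20 for Dcn and -0.030 to 0.054 for Bgn. HFD-ED versus HFD-CO ranged from -0.028 to 0.011 for Col1a1, -0.10 to 0.024 for Col4a2 and -0.081 to 0.020 for Bgn. The cause was not tested. Dim fibrillar probes and 4 mice per diet limit what could be seen.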
